A study of Mus musculus with 18 samples.

Results

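The comparison set brain tissue of mice exposed to urban particulate matter for 8 weeks against brain tissue of mice exposed for 12, 16 or 20 weeks. It used 8 of the 18 libraries of the series, chosen by their time labels. The 8 weeks group held 2 libraries, 1 of hippocampus and 1 of cortex, and the 12 to 20 weeks group held 6 libraries, 1 per tissue at each of the 3 times. All mice were male C57BL/6 mice that were 7 weeks old when dosing began. The exposed mice received the particulate matter, Standard Reference Material 1648a in PBS, through the nose 2 times a week, and the vehicle mice received PBS the same way. Counted from the start of dosing, the mice of the 8 weeks group were 15 weeks old, and those of the 12, 16 and 20 weeks libraries were 19, 23 and 27 weeks old. The vehicle group was 1 library per tissue, whose exposure time the labels do not give. Per the labels each library was made from pooled RNA of mice, whose number is not given, and libraries of both tissues and of 3 times stood in for replicates. The p-values below therefore measure the spread between these libraries, and exposure time, age, total dose and the mice that made up a pool cannot be told apart.

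Gene expression was measured with QuantSeq, which primes at the poly(A) tail and counts reads at the 3′ ends of transcripts. The 8 libraries held between 7314293 and 8649319 counts. The precursor of ribosomal RNA, Rn45s, took between 7.75% and 12.9% of the counts, with the highest share in the cortex library of 8 weeks. Hippocampal markers were in place: Prox1, a dentate granule cell factor, was at 31.1 counts per 1000000 counts of the library (CPM) in the hippocampus library of 8 weeks and at 16.3 to 29.2 CPM in those of 12 to 20 weeks, and at most at 4.90 CPM in the 4 cortex libraries. The cortical markers Lamp5 and Rspo1 were higher in the hippocampus library of 16 weeks, at 93.2 and 10.7 CPM, than in the other 3 hippocampus libraries, where Lamp5 was at 27.7 to 46.2 CPM and Rspo1 at 0.866 to 2.13 CPM. In the 2 files of 8 weeks the column headers carry the number 1, which the headers of the vehicle files share, where the other 6 files carry 12, 16 or 20, and 27 gene symbols in each had been turned into dates and were restored from the line order. The labels are used here as given.

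The hippocampus and the cortex lie close to other forebrain regions. The thalamus, which relays sensory and motor signals to the cortex, and the habenula, which signals to midbrain monoamine neurons, lie below the hippocampus, and the hypothalamus makes neuropeptides such as oxytocin. Oligodendrocytes wrap axons in myelin, and their genes are most abundant in white matter tracts that run beside both tissues. In bulk tissue, a lower level of a marker may mean fewer cells of a type or less RNA per cell, and these cannot be told apart.

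Of 14346 genes tested, 8 passed an adjusted p of 0.05 (0.0558%), of which 5 were higher at 8 weeks (0.0349%) and 3 were lower (0.0209%). The 5 that rose were Prkcd, Tcf7l2, Zfhx3, Gsn and Sema6a. The 3 that fell, Tmem254a, Tmem254b and Tmem254c, are near-identical neighbouring copies. The sequences that surround the transcription starts of 4 of the genes that rose are given next so that their promoters can be compared, each from 250 bases before to 50 bases after a RefSeq start on GRCm38.p6. The Zfhx3 window starts inside the gene's span and belongs to a later start. Capitals mark the core of the motif bound by TCF and LEF factors, the family of Tcf7l2 itself, searched as CTTTGA on both strands.

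Prkcd, chr14:30626159-30626458, minus strand: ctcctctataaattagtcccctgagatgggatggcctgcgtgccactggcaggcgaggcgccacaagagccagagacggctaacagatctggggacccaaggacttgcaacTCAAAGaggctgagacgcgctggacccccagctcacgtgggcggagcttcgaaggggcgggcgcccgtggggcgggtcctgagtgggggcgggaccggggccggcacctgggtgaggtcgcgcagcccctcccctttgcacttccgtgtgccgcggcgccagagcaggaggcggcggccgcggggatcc

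Tcf7l2, chr19:55741560-55741859, plus strand: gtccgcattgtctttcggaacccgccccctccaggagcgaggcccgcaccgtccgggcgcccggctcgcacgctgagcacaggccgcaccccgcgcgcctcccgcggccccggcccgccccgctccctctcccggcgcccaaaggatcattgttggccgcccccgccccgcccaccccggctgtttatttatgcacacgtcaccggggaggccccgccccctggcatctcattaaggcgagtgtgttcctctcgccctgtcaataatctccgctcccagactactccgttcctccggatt

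Zfhx3, chr8:108714394-108714693, plus strand: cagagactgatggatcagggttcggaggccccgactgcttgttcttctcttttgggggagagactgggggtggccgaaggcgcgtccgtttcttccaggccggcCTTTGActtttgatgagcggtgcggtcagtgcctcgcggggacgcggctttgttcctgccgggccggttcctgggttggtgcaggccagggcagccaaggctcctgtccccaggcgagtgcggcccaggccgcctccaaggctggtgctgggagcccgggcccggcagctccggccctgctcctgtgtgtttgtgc

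Gsn, chr2:35256109-35256408, plus strand: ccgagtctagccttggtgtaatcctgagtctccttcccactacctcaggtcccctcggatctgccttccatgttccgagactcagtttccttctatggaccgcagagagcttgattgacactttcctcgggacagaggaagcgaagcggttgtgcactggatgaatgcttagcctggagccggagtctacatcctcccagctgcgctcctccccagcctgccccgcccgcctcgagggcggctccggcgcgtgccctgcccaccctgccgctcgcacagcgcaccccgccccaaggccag

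The Prkcd and Zfhx3 windows each held 1 match, and the Tcf7l2 and Gsn windows held none. Of all 32851 windows of this length, 16.0% held at least 1 match. The homeobox core TAATTA, read by factors such as Shox2, was in none of the 4 windows and in 5.29% of all windows. These matches describe letters in the windows and say nothing of which factor binds there.

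Prkcd encodes protein kinase C delta, a calcium-independent kinase that is abundant in thalamic relay neurons, and lies on chr14:30595354-30626210 of mm10. In hippocampus, Prkcd was at 47.1 CPM at 8 weeks, against 12.9, 16.7 and 16.5 CPM at 12, 16 and 20 weeks. In cortex it was at 24.2 CPM at 8 weeks, against 5.06, 6.01 and 3.28 CPM at 12, 16 and 20 weeks. In each tissue the 8 weeks library was above all later ones. Prkcd rose by 1.95 ± 0.21 on the log2 scale (SE; edgeR's quasi-likelihood test with Benjamini-Hochberg adjustment, adjusted p = 0.0109).

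Tcf7l2, on chr19:55741820-55933654, encodes a transcription factor of the Wnt pathway that is kept on in adult thalamic and habenular neurons. In hippocampus it was at 128.2 CPM at 8 weeks, against 31.7, 27.0 and 44.9 CPM at 12, 16 and 20 weeks. In cortex it was at 46.2 CPM at 8 weeks, against 27.6, 22.9 and 20.8 CPM. The groups did not overlap in either tissue, and the log2 fold change was 1.47 ± 0.20 (adjusted p = 0.0381). Zfhx3, on chr8:107942644-108961630, encodes a large zinc finger and homeobox transcription factor known for its role in the circadian neurons of the suprachiasmatic nucleus. It was at 100.7 CPM at 8 weeks in hippocampus, against 34.9, 36.9 and 34.9 CPM, and at 58.0 CPM at 8 weeks in cortex, against 39.4, 46.0 and 36.1 CPM. It rose by 1.05 ± 0.16 on the log2 scale (adjusted p = 0.0473), with both 8 weeks libraries above all 3 later ones of their tissue.

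Gsn, on chr2:35256380-35307892, encodes gelsolin, which severs and caps actin filaments and is abundant in oligodendrocytes. It was at 99.7 CPM at 8 weeks in hippocampus, against 48.4, 44.2 and 35.6 CPM at 12, 16 and 20 weeks, and at 53.1 CPM at 8 weeks in cortex, against 32.9, 30.5 and 28.7 CPM. The log2 fold change was 1.02 ± 0.12 (adjusted p = 0.0218). The cortex library of 8 weeks was not the highest of its tissue, since the vehicle cortex was at 54.9 CPM. Sema6a, on chr18:47235598-47368870, encodes a transmembrane semaphorin that guides axons and migrating cells. It was at 68.2 CPM at 8 weeks in hippocampus, against 42.6, 33.7 and 34.0 CPM, and at 70.8 CPM at 8 weeks in cortex, against 46.2, 44.4 and 43.8 CPM. Sema6a rose by 0.78 ± 0.11 on the log2 scale (adjusted p = 0.0381), a change of nearly equal size in hippocampus (0.83 ± 0.16) and cortex (0.73 ± 0.16).

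Tmem254b lies on chr14:26203369-26207041, Tmem254c on chr14:26063919-26067355 and Tmem254a on chr14:25923300-25927672, and each encodes a transmembrane protein. The last 300 bases of their transcripts were 100% identical in each pair, so reads at their 3′ ends cannot be assigned to 1 copy and the 3 results are not independent. Tmem254b was at 13.4 CPM at 8 weeks in hippocampus, against 22.4, 27.0 and 26.0 CPM at 12, 16 and 20 weeks, and at 11.4 CPM at 8 weeks in cortex, against 25.3, 23.1 and 30.8 CPM. Both 8 weeks libraries were below all later ones, as for 6.79% of all genes tested. Both were also the lowest of the 9 libraries of their tissue in the whole series, as for 0.537% of all genes tested. Here and below, these 9 include libraries of 3, 5 and 7 days and 3 weeks, whose column headers have another style. In those libraries Rn45s took 14.8% to 18.6% of the counts. Tmem254b fell by 1.04 ± 0.15 on the log2 scale (adjusted p = 0.0381), and the values of the other copies were -1.04 ± 0.15 for Tmem254c (adjusted p = 0.0381) and -1.03 ± 0.15 for Tmem254a (adjusted p = 0.0473). The next lower genes did not pass edgeR's test. Cmtm4, which encodes a membrane protein that stabilises the checkpoint ligand PD-L1, had a log2 fold change of -0.54 ± 0.11 (adjusted p = 0.253). Enc1, which encodes an actin-binding protein of neurons, had one of -0.36 ± 0.08 (adjusted p = 0.321). DESeq2 called Enc1 lower (-0.37, adjusted p = 0.00843), and limma-voom did not call it.

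**Figure D1:**
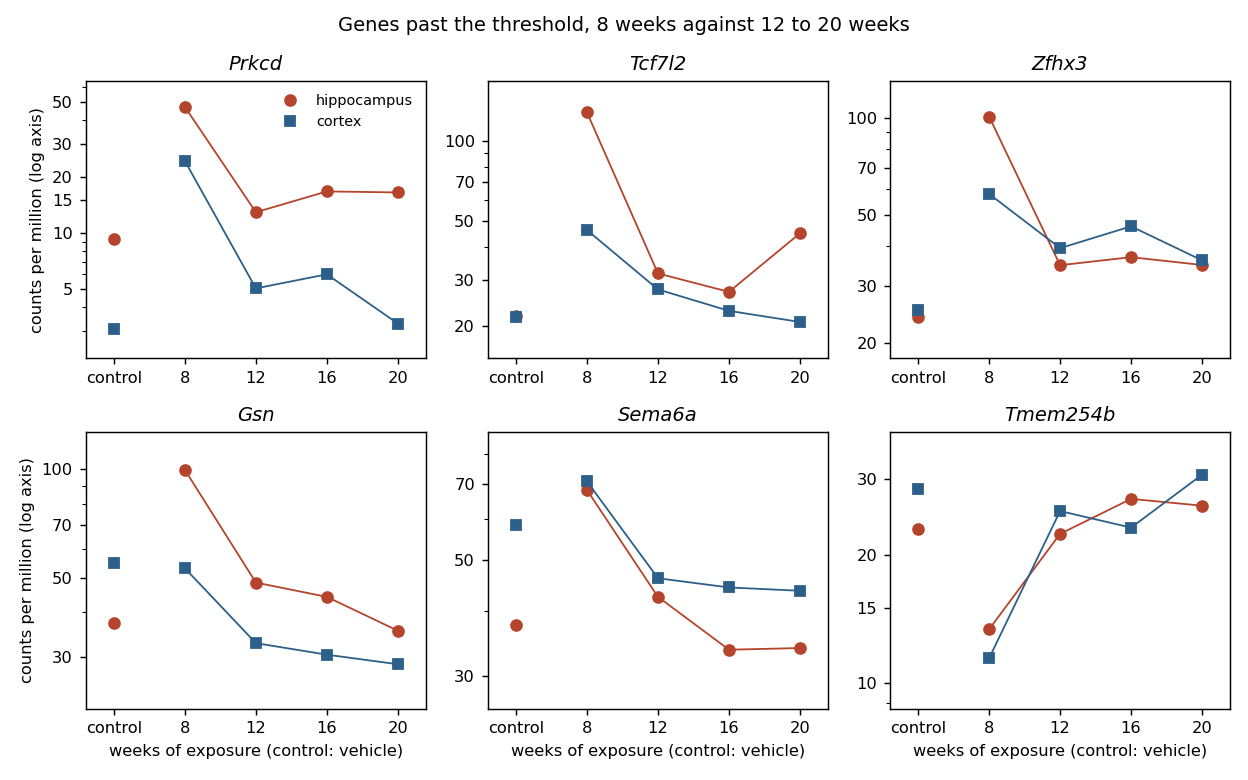
CPM (log axis) of 6 of the 8 genes that passed the test, in the vehicle control and at 8, 12, 16 and 20 weeks, with 1 library per point, circles for hippocampus and squares for cortex. In every panel the 8 weeks points lie outside the range of the 12, 16 and 20 weeks points of their tissue, for example 47.1 against 12.9 to 16.7 CPM for Prkcd in hippocampus.

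The calls rested on few libraries. When the hippocampus library of 8 weeks was left out, edgeR called 0 genes (733 had an unadjusted p under 0.05), and the adjusted p of the 8 genes ranged from 0.0741 for Prkcd to 0.955 for Tcf7l2 and Zfhx3. When the cortex library of 16 weeks was left out, it again called 0 genes (688 had an unadjusted p under 0.05), with adjusted p-values of 0.0675 to 0.084 for the 8 genes. Without the cortex library of 20 weeks 1 gene was called, Prkcd, and without the cortex library of 12 weeks 5 were called. Without the hippocampus library of 20 weeks 22 genes were called, among them all 8. Without the hippocampus library of 12 weeks Tcf7l2 (edgeR, adjusted p = 0.0657) and Zfhx3 (adjusted p = 0.128) no longer passed. Without that of 16 weeks Zfhx3 (adjusted p = 0.051) and Tmem254a (adjusted p = 0.0515) no longer passed. Leaving out the cortex library of 8 weeks gave log2 fold changes of 1.56 (Prkcd), 1.83 (Tcf7l2), 1.44 (Zfhx3) and 1.16 (Gsn). In that fit Sema6a was at 0.83 and the Tmem254 copies were at -0.97 (Tmem254b and Tmem254c) and -0.91 (Tmem254a). It kept 1 library of 8 weeks, so these fold changes do not say that the calls held. Over the 8 fits that left out 1 library each, the log2 fold change of Prkcd ranged from 1.56 to 2.40, that of Gsn from 0.86 to 1.16 and that of Zfhx3 from 0.59 to 1.44, with no change of sign for any of these 3 genes. DESeq2 called 27 genes in the 8 libraries, 21 higher and 6 lower, among them all 8 of edgeR's, and limma-voom called 8 higher genes, 5 of them shared with edgeR. The Tmem254 copies did not pass with limma-voom (adjusted p = 0.0584 to 0.0629). With edgeR they did not pass under total counts alone (adjusted p = 0.0628) or a mean of at least 50 counts (adjusted p = 0.0502 to 0.0571).

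Against the vehicle libraries, in a fit over 10 libraries, 2 of 14465 genes passed the test at 8 weeks (0.0138%), and 488 were higher (3.37%) and 287 lower (1.98%) at an unadjusted p under 0.05. The 2 that passed were Prkcd, at 2.66 ± 0.29 on the log2 scale (adjusted p = 0.00901), and Zfhx3, at 1.69 ± 0.21 (adjusted p = 0.013). Prkcd was at 9.29 CPM and 3.07 CPM in the vehicle hippocampus and cortex, and Zfhx3 at 24.1 and 25.2 CPM, below every library of 8 to 20 weeks of the same tissue. For these genes the same fit gave 0.69 ± 0.26 (Prkcd) and 0.64 ± 0.17 (Zfhx3) for 12 to 20 weeks over vehicle, with an adjusted p of 0.993 for both. Both contrasts share the vehicle libraries and the comparison of 8 weeks with 12 to 20 weeks shares the 8 weeks libraries. Tcf7l2 was at 1.88 ± 0.29 over vehicle at 8 weeks (adjusted p = 0.104), and Tmem254b at -1.03 ± 0.17 (adjusted p = 0.189). The calls of Prkcd and Zfhx3 were lost without the vehicle hippocampus (adjusted p = 0.251 for both) and without the vehicle cortex (adjusted p = 0.0949 for Prkcd and 0.105 for Zfhx3), and Zfhx3 also without the hippocampus library of 8 weeks (adjusted p = 0.152).

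Prkcd and Tcf7l2 belong to a list of 28 thalamic and habenular genes, of which 23 passed the filter on low counts. This was 2 of 23 members called by edgeR, and 14 of 23 were higher at an unadjusted p under 0.05, against 3.09% of all genes, and none was lower, against 2.35% of all genes. The median log2 fold change of the 23 was 0.76, against -0.0059 over all genes tested. Of the 23 members, 14 were above all 3 later libraries in both tissues, against 6.27% of all genes, and 10 were the highest of the 9 libraries of each tissue, against 2% of all genes. The list was chosen with earlier results of these libraries known and is not independent evidence of its direction. Without the hippocampus library of 8 weeks the median was 0.38, against -0.0089 over all genes tested in that fit.

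Shox2, a homeobox factor of thalamic neurons, had 331 counts in the hippocampus library of 8 weeks, against 14, 19 and 39 at 12, 16 and 20 weeks. In cortex it had 156 counts at 8 weeks, against 38, 0 and 1. The vehicle libraries held 5 counts in hippocampus and 1 in cortex, so that in each tissue the 8 weeks library was above the vehicle library and all later ones. Its log2 fold change of 3.70 ± 0.60 did not pass edgeR's test (adjusted p = 0.0724) and passed that of limma-voom (adjusted p = 0.0159). DESeq2 did not call Shox2. Slc17a6, the vesicular glutamate transporter of thalamic and other subcortical neurons, was at 74.1 CPM at 8 weeks in hippocampus, against 39.7, 39.6 and 25.5 CPM, and at 38.0 CPM at 8 weeks in cortex, against 31.5, 27.2 and 33.4 CPM. Lef1, a partner of Tcf7l2 in the same family, was at 14.9 CPM at 8 weeks in hippocampus, against 8.78, 10.6 and 8.76 CPM, and at 13.5 CPM at 8 weeks in cortex, against 8.07, 9.13 and 8.89 CPM. Both were above all later libraries of each tissue, with log2 fold changes of 0.73 ± 0.17 for Slc17a6 (adjusted p = 0.428) and 0.66 ± 0.16 for Lef1 (adjusted p = 0.440). Not every thalamic gene followed. Lhx9, a LIM homeobox factor of thalamic progenitors and neurons, was at 12.5 CPM at 8 weeks in hippocampus, against 13.2, 7.15 and 6.77 CPM, and at 0.953 CPM at 8 weeks in cortex, against 0.120, 0 and 0.137 CPM.

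Pou4f1 and Gpr151, which mark habenular neurons, were seen in the hippocampus library of 8 weeks. Pou4f1, a POU-domain factor, had 107 counts there, against 3, 2 and 0 at 12, 16 and 20 weeks, and 6 counts in the cortex library of 8 weeks, against 2, 2 and 1. Gpr151, an orphan receptor, had 23 counts at 8 weeks in hippocampus, against 0, 0 and 3, and 0 counts at 8 weeks in cortex, which allows up to 3 counts (0.408 CPM), against 1, 0 and 0. The thalamic factor Gbx2 had 12 counts at 8 weeks in hippocampus, against 1, 0 and 0, and 4 at 8 weeks in cortex, against 0, 1 and 0. These 3 genes were not tested because the filter on low counts asks for enough counts in at least 2 libraries. DESeq2, run without that filter, called Pou4f1.

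**Figure D2:**
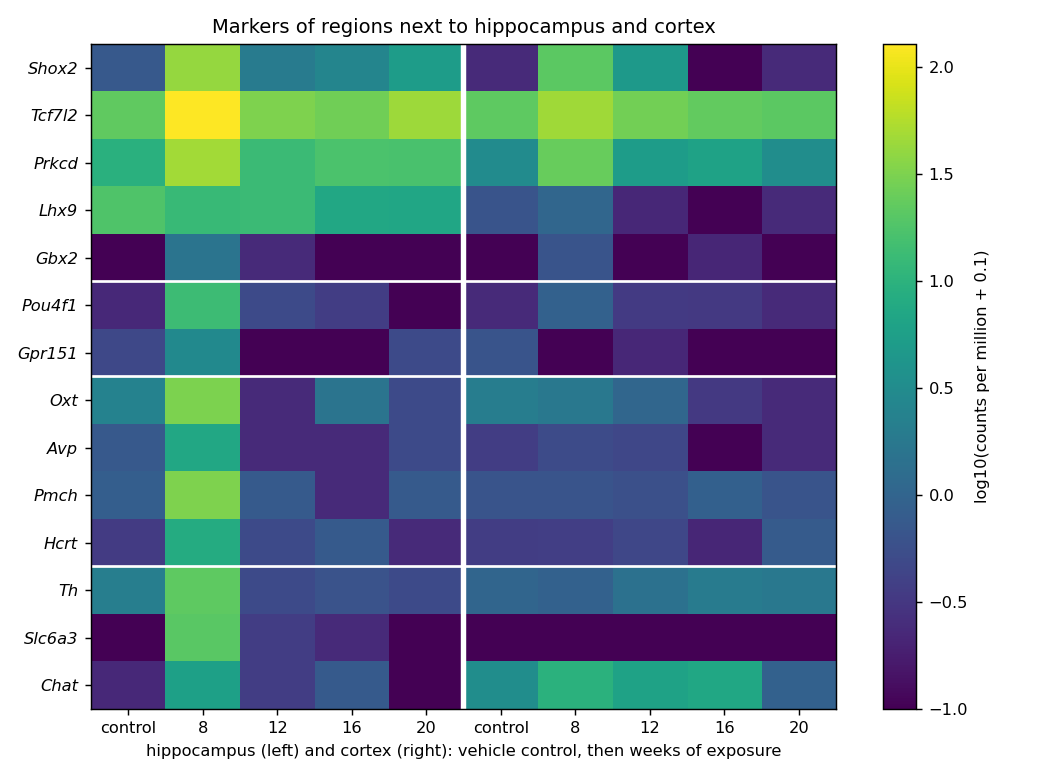
Level of 14 marker genes as log10 of CPM plus 0.1 (colour), in 5 hippocampus libraries (left) and 5 cortex libraries (right), with rows grouped into thalamus, habenula, hypothalamus, and monoamine and acetylcholine neurons. The hippocampus column of 8 weeks is bright in nearly all rows, and the cortex column of 8 weeks is bright for Shox2, Tcf7l2 and Prkcd, with Shox2 at 21.2 CPM in cortex at 8 weeks.

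4 hypothalamic neuropeptide genes, chosen after their values were seen except for Oxt, had more counts in the hippocampus library of 8 weeks than in the vehicle and later ones. Oxt, which encodes oxytocin, had 249 counts there, against 1, 11 and 3 at 12, 16 and 20 weeks and 18 in the vehicle hippocampus. In cortex it had 12 counts at 8 weeks, against 8, 2 and 1, and 15 in the vehicle cortex, so that the cortex library of 8 weeks did not stand apart from vehicle. The log2 fold change of Oxt was 4.30 ± 0.68 and did not pass (adjusted p = 0.0663). Pmch, the precursor of melanin-concentrating hormone, had 258 counts at 8 weeks in hippocampus, against 5, 1 and 5, and 4 at 8 weeks in cortex, against 4, 7 and 4. Hcrt, which encodes orexin, had 65 counts at 8 weeks in hippocampus, against 3, 5 and 1, and Avp, which encodes vasopressin, had 58, against 1, 1 and 3. In cortex both had at most 5 counts in every library of 8 to 20 weeks. The summed level of the 25 hypothalamic genes was 219 CPM at 8 weeks in hippocampus, against 61.5 to 113 CPM, and 59.5 CPM at 8 weeks in cortex, against 54.7 to 70.2 CPM. The filter on low counts removed 15 members of this list, among them Pmch, Hcrt and Avp, and 10 were tested. Of these 10, edgeR called 0, with 2 higher and 0 lower at an unadjusted p under 0.05 (3.09% and 2.35% of all genes). DESeq2 called 0 and limma-voom 1 (Oxt). Run without that filter, edgeR called Oxt (adjusted p = 0.00832), Pmch (adjusted p = 0.039) and the dopamine transporter gene Slc6a3 (adjusted p = 0.000835), also a member. The median of the 10 was 0.13, at 0.42 in hippocampus and -0.72 in cortex, and 4 had negative values, the lowest being Trh, which encodes thyrotropin-releasing hormone, at -1.15. In hippocampus 6 of the 10 were above all later libraries, against 32.8% of all genes.

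Genes of monoamine and acetylcholine neurons had the highest list median, at 1.61 on the log2 scale over 8 tested members of 18. All 8 had positive values, against 48.6% of all genes tested, 6 were higher at an unadjusted p under 0.05, against 3.09%, and 0 passed edgeR's adjusted threshold, where DESeq2 called 1 (Ddc) and limma-voom 0. Ddc, the decarboxylase that makes dopamine and serotonin, was at 46.2 CPM at 8 weeks in hippocampus, against 13.6, 10.2 and 8.76 CPM, and at 10.4 CPM at 8 weeks in cortex, against 5.18, 9.13 and 6.56 CPM, with a log2 fold change of 1.47 ± 0.28 (adjusted p = 0.185). Chat, the enzyme that makes acetylcholine, was at 5.69 CPM at 8 weeks in hippocampus, against 0.266, 0.662 and 0 CPM, and at 9.67 CPM at 8 weeks in cortex, against 6.14, 6.94 and 0.820 CPM (log2 fold change 2.31 ± 0.73, adjusted p = 0.718). Slc6a3, the dopamine transporter, had 166 counts at 8 weeks in hippocampus, against 2, 1 and 0, and 0 counts in each of the 4 cortex libraries of 8 to 20 weeks. Without the hippocampus library of 8 weeks the median of the 8 members was 0.55, against -0.0089 over all genes tested in that fit.

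Oligodendrocyte and myelin genes had a higher summed level at 8 weeks in both tissues, though no single gene passed the test. The sum over the 26 genes was 9991 CPM at 8 weeks in hippocampus, against 6872, 7022 and 3316 CPM at 12, 16 and 20 weeks, and 6806 CPM at 8 weeks in cortex, against 5104, 5073 and 3762 CPM. The 20 weeks library was the lowest of the 4 in each tissue, and the vehicle libraries were at 4184 CPM in hippocampus and 5643 CPM in cortex. Of the 26 members, 14 were higher at an unadjusted p under 0.05 (3.09% of all genes) and 0 lower (2.35% of all genes), with a median log2 fold change of 0.69 (0.78 in hippocampus and 0.49 in cortex). In both tissues 15 members were above all 3 later libraries, against 6.27% of all genes, and 13 were the highest of 9, against 2% of all genes. No member passed edgeR's adjusted threshold in the 8 libraries, limma-voom called 0 and DESeq2 called 1 (Tspan2).

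Tspan2, a tetraspanin of myelinating cells, was at 88.9 CPM at 8 weeks in hippocampus, against 57.1, 50.3 and 27.1 CPM, and at 78.7 CPM at 8 weeks in cortex, against 38.2, 38.9 and 29.1 CPM (log2 fold change 1.08 ± 0.21, adjusted p = 0.185). Mal, a proteolipid that sorts membrane to myelin, was at 529.9 CPM at 8 weeks in hippocampus, against 321.0, 318.9 and 119.0 CPM, and at 415.6 CPM at 8 weeks in cortex, against 232.6, 212.0 and 166.5 CPM (1.06 ± 0.26, adjusted p = 0.459). Mobp, a structural protein of compact myelin, had a log2 fold change of 1.18 ± 0.31 (adjusted p = 0.469). Mbp, myelin basic protein, was at 3296 CPM at 8 weeks in hippocampus, against 2325, 2261 and 946.7 CPM, and at 2041 CPM at 8 weeks in cortex, against 1623, 1633 and 1144 CPM, with a log2 fold change of 0.67 ± 0.26 (adjusted p = 0.840). For each of these 3 genes with sample values the 8 weeks library was above every later one in its tissue. The transcription factor Sox10, which specifies the lineage, did not separate: it was at 55.1 CPM at 8 weeks in hippocampus, against 58.3, 56.0 and 35.9 CPM, and at 41.3 CPM at 8 weeks in cortex, against 42.0, 42.4 and 32.7 CPM.

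The spread among the later libraries, with the 20 weeks libraries lowest, was part of the error of these tests. In a fit without both 20 weeks libraries, chosen after this was seen, edgeR called 31 of 14180 genes, 27 higher and 4 lower. Of these, 8 were among the 26 myelin genes. The libraries were left out because their myelin levels were lowest, so these calls are no independent support for the myelin values. Sfi1 and Pisd-ps1, which are in none of the lists, had the smallest adjusted p-values, and the collagen genes Col1a1, Col1a2 and Col3a1 were also called. The myelin genes called included Cldn11, a tight junction protein of myelin (0.79 ± 0.08 on the log2 scale), Mal (0.83 ± 0.09), Mog (0.85 ± 0.10), Tspan2, Mobp and Mag. The median of the 26 members against 12 and 16 weeks alone was 0.47. With the 20 weeks libraries kept and the hippocampus library of 8 weeks left out, the median was 0.49, against -0.0089 over all genes tested.

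**Figure D3:**
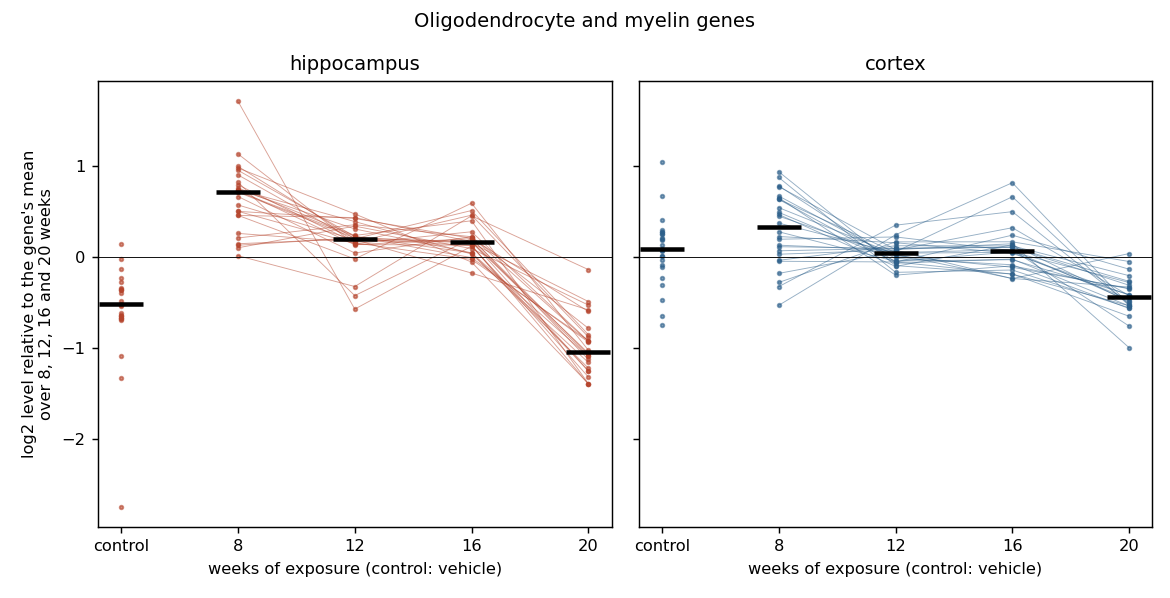
Level of each of the 26 oligodendrocyte and myelin genes, as log2 of CPM relative to the gene's own mean over 8, 12, 16 and 20 weeks, in hippocampus (left) and cortex (right), with points and thin lines for genes and black bars for medians over the genes. The 8 weeks medians are the highest and the 20 weeks medians the lowest of the 4 times in both tissues, and the summed level in hippocampus was 9991 CPM at 8 weeks and 3316 CPM at 20 weeks.

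Genes of oligodendrocyte precursors, the dividing cells that give rise to oligodendrocytes, had a median of 0.31. Of 16 tested members 7 were higher at an unadjusted p under 0.05, against 3.09% of all genes, and 0 lower, against 2.35%, and edgeR, DESeq2 and limma-voom each called 0. Vcan, a chondroitin sulfate proteoglycan, was at 35.9 CPM at 8 weeks in hippocampus, against 26.5, 29.8 and 25.5 CPM, and at 28.9 CPM at 8 weeks in cortex, against 22.6, 21.2 and 18.9 CPM (log2 fold change 0.44 ± 0.12, adjusted p = 0.525). Gpr17, a receptor of cells at the step between precursor and oligodendrocyte, had a log2 fold change of 0.53 ± 0.15 (adjusted p = 0.585), and Enpp6, of newly formed oligodendrocytes, one of 0.85 ± 0.28 (adjusted p = 0.722). Pdgfra, the growth factor receptor that defines precursors, overlapped in hippocampus only, at 31.8 CPM at 8 weeks in hippocampus, against 27.6, 20.4 and 33.9 CPM, and at 25.3 CPM at 8 weeks in cortex, against 20.6, 16.5 and 23.9 CPM.

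Summed levels of markers of neighbouring regions lay above the later libraries for some regions and within their range for others. The summed level of the 28 thalamic and habenular genes was 1350 CPM at 8 weeks in hippocampus, against 721 to 858 CPM, and 1168 CPM at 8 weeks in cortex, against 979 to 1049 CPM. The summed level of 20 striatal genes was 2611 CPM at 8 weeks in cortex, against 2333, 2142 and 880 CPM at 12, 16 and 20 weeks, and 793 CPM at 8 weeks in hippocampus, against 725 to 805 CPM. The summed level of 22 choroid plexus genes was 3974 CPM at 8 weeks in hippocampus, against 2856, 6742 and 4518 CPM, and 316 CPM at 8 weeks in cortex, against 303 to 509 CPM. The part of these regions in the calls and in the myelin values was not tested.

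The list of mural cell, fibroblast and meningeal genes had medians of opposite sign in the 2 tissues, and that of endothelial genes had positive medians in both, at 0.22 in hippocampus and 0.04 in cortex. Of 26 tested genes of mural cells, fibroblasts and meninges, 19 were above all 3 later libraries in hippocampus, against 32.8% of all genes, and 2 were below all 3, against 18.4%. In cortex 15 were below all 3, against 37.3% of all genes, and 4 were above all 3, against 17.6%. Their median log2 fold change was 0.76 in hippocampus and -0.31 in cortex. A test of the difference between tissues called 2 of 14346 genes (0.0139%), Acta2 and Th, and 762 were at an unadjusted p under 0.05 (5.31%). Each tissue had 1 library of 8 weeks, so the spread in this test came from the 12 to 20 weeks libraries alone, and limma-voom called 0 genes (675 at an unadjusted p under 0.05). Acta2, the actin of smooth muscle, was at 108.2 CPM at 8 weeks in hippocampus, against 23.8, 26.3 and 29.3 CPM, and at 10.5 CPM at 8 weeks in cortex, against 14.8, 18.2 and 15.4 CPM. The difference, hippocampus minus cortex, was 2.52 on the log2 scale (adjusted p = 0.0156). Myh11, the smooth muscle myosin, was at 50.7 CPM at 8 weeks in hippocampus, against 11.7, 14.4 and 13.8 CPM, and at 8.17 CPM at 8 weeks in cortex, against 9.75, 11.6 and 9.30 CPM, and its difference of 2.13 did not pass (adjusted p = 0.0868). Igf2, a growth factor of meninges and choroid plexus, and Mgp, an inhibitor of calcification in vessel walls, had differences of 2.29 and 2.04 with adjusted p-values of 0.0532 and 0.0625.

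Th, tyrosine hydroxylase, the first enzyme of dopamine synthesis, had 176 counts at 8 weeks in hippocampus, against 3, 4 and 3, and 6 counts at 8 weeks in cortex, against 11, 16 and 12. Its difference between tissues was 6.40 on the log2 scale (adjusted p = 0.0156). Each value rests on 1 library of 8 weeks per tissue. Both calls were lost when any 1 of the 3 later cortex libraries was left out, with adjusted p-values of 0.0546 to 0.0742.

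**Figure D4:**
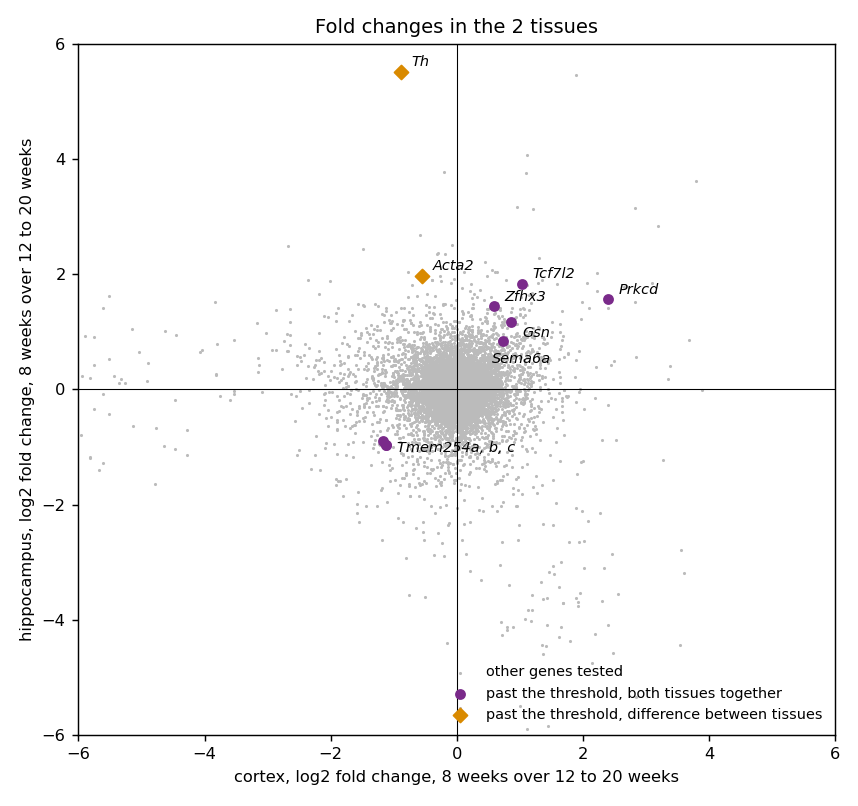
Log2 fold change of 8 weeks over 12 to 20 weeks in cortex (horizontal) and hippocampus (vertical) from 1 fit, with 1 point per gene tested, circles for the 8 genes that passed in both tissues together and diamonds for the 2 that passed the test of the difference between tissues. Acta2 and Th lie above 0 in hippocampus and below 0 in cortex, and 21 genes lie outside the axes.

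Among astrocyte genes, 8 of 21 homeostatic members were higher at an unadjusted p under 0.05 (3.09% of all genes), with 0 lower (2.35% of all genes) and a median of 0.20. edgeR called 0 of them, and DESeq2 and limma-voom each called 1 (Agt). Agt, angiotensinogen, which is abundant in astrocytes of the thalamus and hypothalamus, was at 66.8 CPM at 8 weeks in hippocampus, against 15.7, 11.0 and 18.9 CPM, and at 7.08 CPM at 8 weeks in cortex, against 6.02, 4.51 and 4.65 CPM (log2 fold change 1.54 ± 0.28, adjusted p = 0.176). Slc6a11, a GABA transporter of astrocytes, was at 0.52 ± 0.15 (adjusted p = 0.649) and the neurotensin receptor gene Ntsr2 at 0.32 ± 0.10 (adjusted p = 0.722). Without the hippocampus library of 8 weeks the median of the 21 was -0.02, against -0.0089 over all genes tested in that fit. Sparc, a matrix protein of glia and endothelium, was at 592.5 CPM at 8 weeks in hippocampus, against 260.3, 224.7 and 353.2 CPM, and at 216.8 CPM at 8 weeks in cortex, against 142.4, 140.0 and 180.6 CPM. Its log2 fold change of 0.81 ± 0.16 did not pass edgeR's test (adjusted p = 0.199). DESeq2 called Sparc higher (0.81, adjusted p = 0.000418), and limma-voom did not call it.

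Lists with lower values held no gene called by edgeR. Of 29 immediate early genes, which neurons switch on within minutes of activity, 5 were lower at an unadjusted p under 0.05, against 2.35% of all genes, and 0 higher, against 3.09%, with a median of -0.27, and DESeq2 and limma-voom called 0. Egr3 was at 54.2 CPM at 8 weeks in hippocampus, against 77.9, 96.5 and 85.4 CPM. In cortex it was at 101.0 CPM at 8 weeks, against 116.7, 114.7 and 118.4 CPM (log2 fold change -0.41 ± 0.13, adjusted p = 0.710). This is below all later libraries in both tissues, as for 6.79% of all genes tested. Egr4 had a log2 fold change of -0.53 ± 0.18 (adjusted p = 0.777) and Npas4 one of -1.16 ± 0.42 (adjusted p = 0.803). Fos and Arc, the most used markers of activity, were at -0.51 ± 0.43 and -0.54 ± 0.38, each within the range of the later hippocampus libraries. Without the hippocampus library of 8 weeks the median of the 29 was -0.12, against -0.0089 over all genes tested in that fit.

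Of 22 homeostatic microglia genes 2 were lower at an unadjusted p under 0.05 (2.35% of all genes), 0 were higher (3.09% of all genes), and 0 were called by edgeR, DESeq2 or limma-voom. Trem2, a lipid receptor of microglia, was at 4.45 CPM at 8 weeks in hippocampus, against 8.39, 6.49 and 5.58 CPM, and at 4.22 CPM at 8 weeks in cortex, against 7.46, 6.94 and 8.89 CPM (log2 fold change -0.73 ± 0.25, adjusted p = 0.772). The purinergic receptor gene P2ry12 was at -0.33 ± 0.14 (adjusted p = 0.860). Il33, an alarmin cytokine of oligodendrocytes and astrocytes, was at 18.6 CPM at 8 weeks in hippocampus, against 33.5, 32.0 and 21.5 CPM, and at 13.6 CPM at 8 weeks in cortex, against 24.1, 24.7 and 20.8 CPM (-0.70 ± 0.17, adjusted p = 0.459). In both tissues Trem2 and Il33 were below every later library, as for 6.79% of all genes tested. In vehicle hippocampus and cortex Trem2 was at 5.78 and 3.20 CPM and Il33 at 17.3 and 17.4 CPM. The haemoglobin gene Hbb-bs was at 192.9 CPM at 8 weeks in hippocampus, against 236.5, 227.4 and 275.8 CPM, and at 166.5 CPM at 8 weeks in cortex, against 330.9, 240.0 and 258.8 CPM (-0.53 ± 0.14, adjusted p = 0.469). DESeq2 called Hbb-bs lower (-0.53, adjusted p = 0.0493), and limma-voom did not call it.

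No tested member of the lists for oxidant and polycyclic compound responses passed the test. Of 26 tested targets of NRF2, the factor that switches on antioxidant enzymes, 0 were called by edgeR, DESeq2 or limma-voom. The same held for 14 tested genes of the aryl hydrocarbon receptor, which senses polycyclic aromatic compounds. In both lists 0 were at an unadjusted p under 0.05, where 3.09% of all genes were higher and 2.35% lower. The list medians were 0.0027 and -0.041. The filter on low counts removed Cyp1a1, Cyp1a2, Ahrr and Ugt1a6a from the receptor list, so edgeR did not test these genes. Hmox1, haem oxygenase, was at 0.866 CPM at 8 weeks in hippocampus, against 0.532, 0.926 and 1.06 CPM, and at 0.681 CPM at 8 weeks in cortex, against 2.41, 1.04 and 1.64 CPM (log2 fold change -0.61 ± 0.58, adjusted p = 0.955). Of 22 interferon response genes 2 were lower at an unadjusted p under 0.05, against 2.35% of all genes, and 0 were called by the 3 tools, with a median of -0.30. The metal-binding proteins Mt1 and Mt2 had log2 fold changes of 0.26 ± 0.12 (adjusted p = 0.893) and 0.50 ± 0.16 (adjusted p = 0.710). Gfap, of reactive astrocytes, was at 0.14 ± 0.15 (adjusted p = 0.969), and Aif1, of microglia, at -0.29 ± 0.20 (adjusted p = 0.950).

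**Figure D5:**
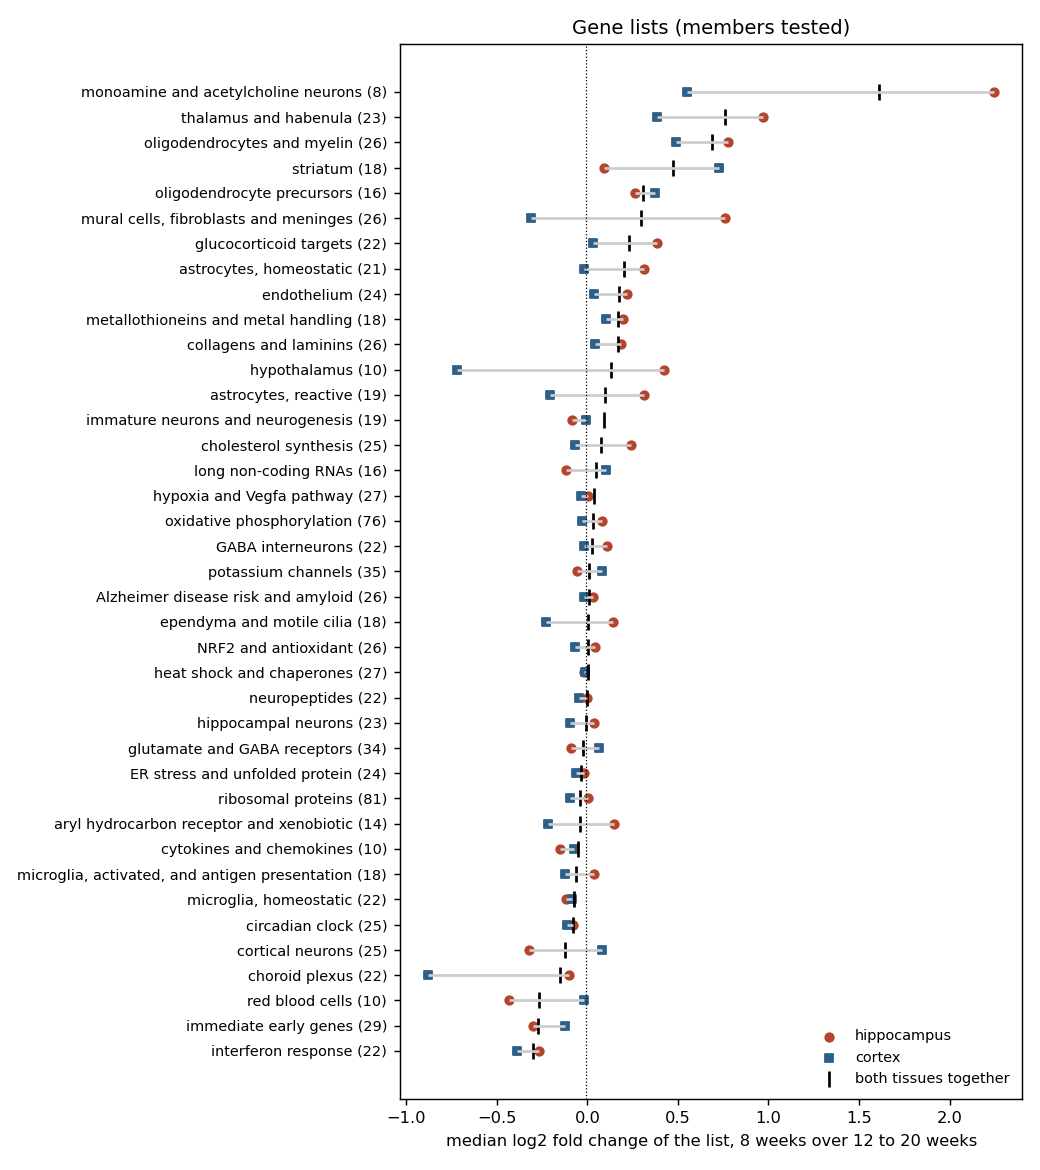
Median log2 fold change of 8 weeks over 12 to 20 weeks for each list with at least 8 tested members (number in brackets), with circles for hippocampus, squares for cortex, bars for both tissues together and a dotted line at the median of all genes. The list of monoamine and acetylcholine neurons is highest at 1.61, followed by thalamus and habenula at 0.76 and oligodendrocytes and myelin at 0.69.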

How the data were processed

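RNA was sequenced as 3′ ends (QuantSeq), per the labels' protocols. The deposited files hold raw counts per gene symbol, 1 file per library. Bowtie2, bedtools, edgeR and the build mm10 are named in the submitters' processing notes, and their versions, order and settings are not given in the sources used here. Each file has 23282 lines and 23238 distinct symbols, and 22825 symbols had 1 position in GENCODE M21. No column of other samples was used (0). Symbols turned into dates were restored by line order.

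Counts were scaled with TMM factors, filtered with filterByExpr and tested with edgeR 4.0.16 (R 4.3.3), a quasi-likelihood test with tissue as a covariate over 8 libraries, which left 5 residual degrees of freedom. A second fit added an interaction of tissue and group, and another fit added the 2 vehicle libraries. P-values are two-sided and adjusted by Benjamini-Hochberg across every gene in the fit, and a gene was called at an adjusted p under 0.05. SE is the absolute log2 fold change divided by the square root of the F statistic. CPM is counts per 1000000 of the library's total, without TMM factors. Library totals of 7314293 to 8649319 counts make 1 count worth 0.116 to 0.137 CPM, and 0 counts allow up to 3 counts; this covers counting error only. The fits were also run on simulated counts with known changes in genes averaging at least 50 counts. Those libraries were drawn independently, so that run says nothing of pools that share mice or of differences among the later times. Alternatives used DESeq2 1.42.0, limma-voom 3.58.1, other scalings and filters, a block for exposure time and fits without 1 library.

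Genes named are the called genes of largest change that averaged 5 CPM or more, or, where fewer than 5 passed in a direction, the 5 with the smallest p. To these were added the 5 with the smallest p in the difference between tissues, the corresponding genes against vehicle, the 3 with the smallest p in each list, and a list of key genes. Slc17a6, Lef1, Lhx9, Pou4f1, Gpr151, Gbx2, Avp, Pmch, Hcrt, Slc6a3, Cldn11, Mog, Mag, Sox10 and Pdgfra were named after their values were seen. The members and lists were chosen with earlier results of these data known. Promoter windows are RefSeq's, on GRCm38.p6.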

Additional observations from a re-analysis of the deposited data

Results flagged for a closer look

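The difference between tissues in the effect of 8 weeks over 12 to 20 weeks passed edgeR's test for 2 genes. With 1 library of 8 weeks per tissue the spread came from the later libraries alone. Both calls were lost without any 1 later cortex library (adjusted p = 0.0546 to 0.0742), and limma-voom called 0 genes (675 at an unadjusted p under 0.05). Acta2, the actin of smooth muscle, had a difference of hippocampus minus cortex of 2.523 on the log2 scale (edgeR's quasi-likelihood test, adjusted p = 0.0156), from 1.97 ± 0.16 in hippocampus and -0.55 ± 0.21 in cortex. It was at 108.2 CPM in the hippocampus library of 8 weeks and at 23.8 to 29.3 CPM in the later ones, and at 10.5 CPM in the cortex library of 8 weeks and at 14.8 to 18.2 CPM in the later ones. Th, which makes the precursor of dopamine, had a difference of 6.405 (adjusted p = 0.0156), from 5.52 ± 0.40 in hippocampus and -0.89 ± 0.55 in cortex. Markers of dopamine neurons and of vessels were high together in the hippocampus library of 8 weeks, where Slc6a3 had 166 counts, and their part in these differences was not tested.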

How the results depend on the processing

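With 1 library of 8 weeks per tissue, counts of calls moved with the settings while directions mostly held. Over genes and settings 1261 values kept direction and side of the threshold, 57 newly passed, 78 no longer passed and 16 changed sign. The cause was not tested. This tally pools in genes that did not pass as reported. Of 19 alternative settings, Zfhx3 and Tmem254a no longer passed in 11, Tmem254b and Tmem254c in 10 and Sema6a in 8. For Gsn and Tcf7l2 this number was 5, and for Prkcd it was 3. For 8 weeks against 12 to 20 weeks (8 genes), DESeq2 called 27, total counts alone 3, no filter on low counts 20, a mean of at least 50 counts 4, and a test against a fold of 1.5 called 0 (117 at an unadjusted p under 0.05). Without both 20 weeks libraries, an alternative chosen after seeing the data, 31 were called, and without 1 library 0 to 22. For the difference between tissues (2 genes), DESeq2 called 9, limma-voom 0 (675 at an unadjusted p under 0.05), total counts alone 4 (with a shift of the median of all genes by 0.131), no filter 8, a mean of at least 50 counts 1, and fits without 1 later library 0 to 9. Against vehicle (2 genes), DESeq2 called 14, no filter 6, a fold above 1.5 called 1, and fits without 1 library 1 to 11.

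Exposure time as a random block, with limma-voom, gave 8, 1 and 3 genes for the 3 comparisons. The labels carry no numbers that pair the samples. Hippocampus and cortex of the same time deviated together with correlations of 0.0619, 0.252 and 0.191 at 12, 16 and 20 weeks. Between different times the correlations were -0.202 to 0.0286. The deviations are from each tissue's mean over these times, so the values are tied to each other. Whether both tissues of a time came from the same mice was not tested, and the main tests treat them as independent. The block result is no test of pairing.

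Signs that changed came mostly from leaving out 1 library of 8 weeks. Over those fits the log2 fold change ranged from -0.55 to 1.97 for Acta2, -0.89 to 5.51 for Th, -1.33 to 0.95 for Igf2, -0.86 to 1.18 for Mgp, -0.25 to 1.87 for Myh11, -0.27 to 1.31 for Calb2, -0.48 to 1.65 for Tagln, -0.29 to 0.44 for Gfap, -0.31 to 0.37 for Nqo1, -2.10 to 1.27 for Cyp1b1, -0.26 to 0.0542 for Bdnf, -0.12 to 0.0662 for Apoe and -0.14 to 0.30 for Meg3. Apoe was at 0.0213 with the vehicle libraries added to 12 to 20 weeks.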
